A study of Mus musculus with 16 samples.

Results

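The lysosome is the acid compartment in which cells break down protein, lipid, glycan and glycogen. The vacuolar proton pump acidifies it, and the cathepsins, most of them cysteine proteases that need the low pH, and a large set of other hydrolases work inside. Small activator and transfer proteins present lipids to those enzymes, and heavily glycosylated membrane proteins line the inner face. In injured muscle, macrophages that clear dead fibres are rich in these enzymes, muscle fibres use the same compartment for autophagy, and bone-resorbing osteoclasts secrete cathepsin K.

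The genes described here are 47 mouse genes of this compartment, chosen by gene symbol and grouped by class. The classes are 12 cathepsins (legumain and the carboxypeptidase cathepsin A included), 17 other hydrolases, 4 activator, transfer or protective proteins, 8 membrane proteins and 6 parts of the proton pump. Of the 47, 43 had at least 1 probe on the array, 63 of its 25697 probes in all. Lipa, Plbd2, Npc1 and Atp6v0c matched no row under these symbols and are not analysed here. A probe entered the tests when its detection p was under 0.05 on at least 3 arrays. Genes passing that filter numbered 40, with 57 probes, among 10936 genes and 14763 probes. Both probes of the cathepsin Ctso and the probe of Gla, alpha-galactosidase A, were detected on 0 arrays, and that of Atp6v0d2, the pump subunit known from osteoclasts, on 1 array.

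RNA came from whole hamstring muscle of female mice, taken 2 days after surgery and hybridised to 1-colour Illumina BeadChips. Labels name 4 groups of 4 arrays. SCI+CDTX mice had a thoracic spinal cord injury (SCI) with cardiotoxin (CDTX), a cobra venom peptide that kills muscle fibres, injected into the muscle. SCI+Saline mice had the cord injury and intramuscular saline, Sham+CDTX mice sham surgery and cardiotoxin, and Sham+Saline mice sham surgery and saline. The series describes SCI+CDTX as the sole condition in which neurogenic heterotopic ossification, bone formed within muscle after a neurological injury, develops. No strain, age or pooling is given in the labels used here, and nothing in them says that the numbered replicates of a group are separate animals, so the p-values measure the spread between these arrays, which may be technical. SCI+CDTX 2 carries a label that the authors left it out, and it was left out of the fit, which holds 15 arrays. Every SCI array lay on 1 slide and every sham array on the other, so an SCI effect and the slide cannot be told apart. The cardiotoxin effects and the interaction lie within slides. By the array codes, however, cardiotoxin arrays held positions A to D and saline arrays E to H on both slides. A cardiotoxin effect and the position on the slide therefore cannot be told apart either.

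Some arrays stood apart. In 2788 genes outside the lysosomal set that had 2 or more probes, the difference between a gene's 2 brightest probes was summarised by its first component, which took 33.1% of the variance. This probe difference score ranged from 0.35 to 0.39 over the Sham+CDTX arrays and was 0.28 for SCI+CDTX 2, whereas the remaining 11 arrays lay between −0.27 and −0.06. A second fit was made on 16 arrays with the score as a term, and its value stands beside each cardiotoxin effect whose call it ended or made. In that fit SCI+CDTX 2 is the sole array that joins a high score to another group. The values of that fit for Sham+CDTX therefore rest largely on SCI+CDTX 2. They are estimates of a model and not differences seen between arrays. SCI+Saline 4 and Sham+Saline 4 carried transcripts of bone and marrow. Ngp, a neutrophil granule gene of the marrow, stood at 8.36 and 8.37 (log2 intensity) there and at 4.21 to 4.41 on the other 13 arrays, and Ibsp, bone sialoprotein, at 6.79 and 8.62 against 4.16 to 4.60. As a check of the tissue, all 8 muscle fibre markers were detected, and their summed intensity ranged from 108694 to 126560 over the 15 arrays. Quantile normalization gives every array the same set of values, so a similar sum of such bright probes is partly built in. The sum does not measure fibre content.

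The lysosomal genes were higher in cardiotoxin-injected than in saline-injected muscle, whichever surgery the mice had. After SCI, 28 of the 40 genes rose and 3 fell with cardiotoxin (limma, Benjamini-Hochberg adjusted p under 0.05), where 22.1% of all genes tested rose and 22.2% fell. The median log2 fold change was 1.08 over the 40 genes and −0.04 over all 10936. After sham surgery 29 rose and 2 fell, beside 23.8% and 26.8% of all genes, with a median of 1.06 against −0.05. Genes that rose in both numbered 25. Ctsf fell in both, and Ctsk, Acp5, Mcoln1 and Scarb2 passed the test in neither.

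**Figure D1:**
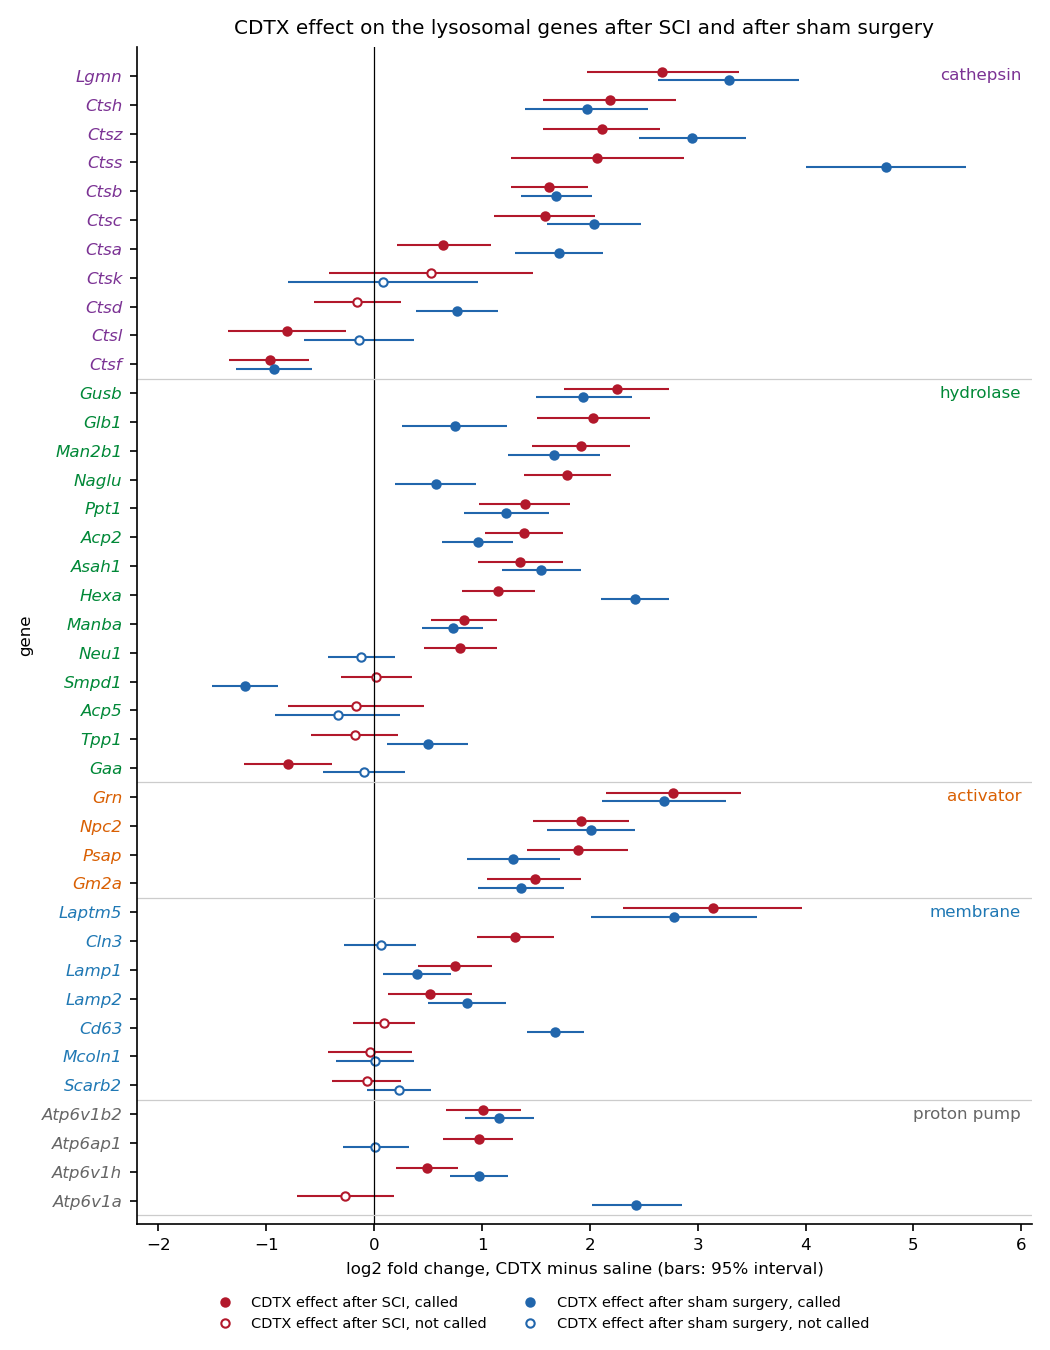
Log2 fold change of cardiotoxin over saline for the 40 tested genes, after SCI (red) and after sham surgery (blue), with 95% intervals from limma; filled points passed the adjusted p threshold and open points did not. Of the 40 genes 28 rose after SCI and 29 after sham surgery, with Laptm5 at the top after SCI (3.14) and Ctss after sham surgery (4.75).

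By class, all 4 activator and transfer genes rose in both settings, with a median log2 fold change of 1.90 after SCI and 1.69 after sham surgery. Among 11 cathepsin-class genes 7 rose and 2 fell after SCI (median 1.58), and 8 rose and 1 fell after sham surgery (median 1.71). Among 14 hydrolases 10 rose and 1 fell in each setting, with medians of 1.25 and 0.74. Membrane genes gave 4 of 7 higher in each setting (medians 0.52 and 0.40), and pump genes 3 of 4 (0.73 and 1.06). Averaged over the activator genes, the mean log2 intensity was 11.33 ± 0.20 (SD, n = 3) in SCI+CDTX, 9.32 ± 0.52 (n = 4) in SCI+Saline, 11.27 ± 0.12 (n = 4) in Sham+CDTX and 9.43 ± 0.20 (n = 4) in Sham+Saline.

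**Figure D2:**
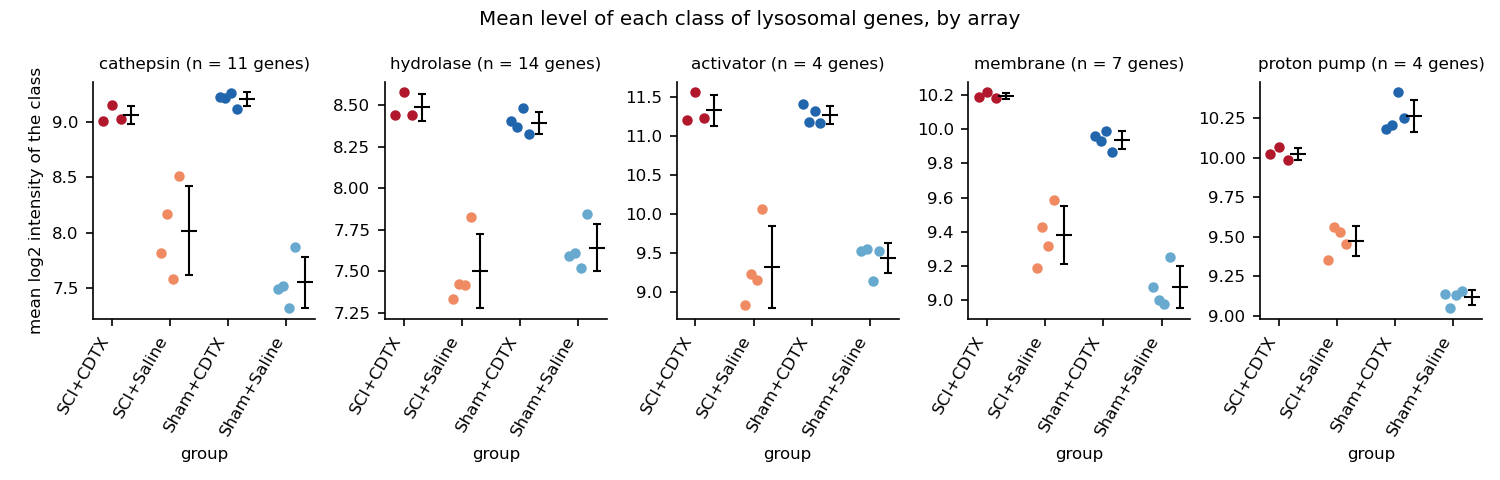
Mean log2 intensity over the tested genes of each class on each of the 15 arrays (points, by group), with the group mean and SD beside them. In every class the cardiotoxin arrays lie above the saline arrays of the same surgery; for the cathepsins the lowest cardiotoxin array is at 9.01 and the highest saline array at 8.51.

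Markers of cell types did not all move the same way, and the highest medians were those of macrophages and monocytes. Of 12 such genes 11 were detected, and all 11 rose with cardiotoxin after SCI (median 2.11) and after sham surgery (median 2.97). Their summed intensity was 12871 to 19114 in SCI+CDTX, 907 to 4358 in SCI+Saline, 17082 to 20661 in Sham+CDTX and 1296 to 2301 in Sham+Saline. Fibroadipogenic progenitor markers gave 2 of 4 higher after SCI (median 1.08) and 4 of 4 after sham surgery (median 1.33), lymphocyte markers 2 of 2 after SCI (median 1.07, and 0.04 after sham surgery), and neutrophil markers 2 of 6 in each (medians 0.52 and 0.61). The 2 arrays with marrow transcripts weigh on the neutrophil values. The neutrophil markers summed to 138 to 184 on Sham+Saline 1 to 3, 9879 on Sham+Saline 4 and 627 to 923 in Sham+CDTX. Their sum was 2028 to 3847 on SCI+Saline 1 to 3, 12248 on SCI+Saline 4 and 2977 to 5006 in SCI+CDTX. Endothelial markers gave 1 of 3 higher after SCI and 1 of 3 lower after sham surgery. Muscle fibre markers had medians of 0.08 and −0.09, with 2 of 8 higher after sham surgery. Beside these counts, 22.1% of all genes tested rose and 22.2% fell after SCI, and 23.8% and 26.8% after sham surgery. In whole muscle, more cells of a type and more RNA per cell cannot be told apart, and the part of these cell types in the lysosomal result was not tested.

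Many lysosomal promoters carry the E-box CACGTG, and its flanked form TCACGTGA is the core of the CLEAR element, the site bound by the transcription factor TFEB and its relatives. RefSeq promoters (GRCm38.p6, from 250 bases before to 50 after each start) matched 39 of the 47 genes by symbol. CACGTG was found in a promoter of 13 of the 39 (33.3%), where 8.09% of 27025 genes hold it, searching both strands (the motif reads the same on each). TCACGTGA, which contains CACGTG, was found in 6 of the 39 (15.4%) against 1.12% of genes. The palindrome with 1 further matching base on either side occurred in 1 gene, Cln3, and GAGGAAGT, a purine-rich form bound by the myeloid factor PU.1, in 4 (10.3%) against 3.69% of genes. The 5 promoters below are shown as genes that hold the motif and rose in different settings: Lgmn and Lamp1 rose with cardiotoxin after both surgeries, Cln3 after SCI, and Ctsd and Atp6v1a after sham surgery. Each is the 250 bases before a start, 5′ to 3′ on the gene's strand, with CACGTG, or TCACGTGA where the flanks match, in capitals. For a gene with several promoters, one that holds the motif is shown. Lgmn and Cln3 each have another promoter, at chr12:102439679-102439978 and chr7:126585768-126586067, in which CACGTG was not found.
Lgmn, chr12:102439093-102439342, minus strand: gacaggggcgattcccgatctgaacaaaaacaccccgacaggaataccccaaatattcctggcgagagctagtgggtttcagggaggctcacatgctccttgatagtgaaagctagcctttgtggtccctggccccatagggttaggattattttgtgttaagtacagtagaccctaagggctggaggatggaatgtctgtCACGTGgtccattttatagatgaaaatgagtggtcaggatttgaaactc
Ctsd, chr7:142387828-142388077, minus strand: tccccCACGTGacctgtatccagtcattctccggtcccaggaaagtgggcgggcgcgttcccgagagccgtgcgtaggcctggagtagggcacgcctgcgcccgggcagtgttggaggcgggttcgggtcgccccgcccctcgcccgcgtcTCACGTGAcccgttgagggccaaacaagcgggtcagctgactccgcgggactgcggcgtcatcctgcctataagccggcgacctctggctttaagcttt
Lamp1, chr8:13158911-13159160, plus strand: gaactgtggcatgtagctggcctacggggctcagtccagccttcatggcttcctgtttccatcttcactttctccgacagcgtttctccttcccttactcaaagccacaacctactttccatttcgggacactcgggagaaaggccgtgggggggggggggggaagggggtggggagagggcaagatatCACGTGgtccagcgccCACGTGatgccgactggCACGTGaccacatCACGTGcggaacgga
Cln3, chr7:126583237-126583486, minus strand: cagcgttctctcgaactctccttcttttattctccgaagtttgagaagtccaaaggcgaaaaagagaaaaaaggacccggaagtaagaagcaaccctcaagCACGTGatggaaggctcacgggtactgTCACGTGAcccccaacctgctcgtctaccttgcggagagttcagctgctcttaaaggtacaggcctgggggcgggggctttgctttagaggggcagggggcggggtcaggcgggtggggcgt
Atp6v1a, chr16:44139260-44139509, minus strand: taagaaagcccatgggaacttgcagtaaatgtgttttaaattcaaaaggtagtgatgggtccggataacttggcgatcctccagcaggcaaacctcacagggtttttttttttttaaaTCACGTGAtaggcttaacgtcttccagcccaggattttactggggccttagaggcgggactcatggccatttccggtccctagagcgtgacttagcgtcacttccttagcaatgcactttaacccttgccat

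Lamp1 holds 4 matches, which begin 61, 45, 28 and 15 bases before the start. Matches in Ctsd begin at 245 and 98 bases, in Cln3 at 149 and 121, in Atp6v1a at 131 and in Lgmn at 49. The tested genes with CACGTG did not have the larger response. Among the 12 of them, 6 rose and 3 fell with cardiotoxin after SCI (median log2 fold change 0.30), and 7 rose and 1 fell after sham surgery (median 0.48). Among 23 tested genes whose promoter lacks it, 17 rose after SCI (median 1.39), and 17 rose and 1 fell after sham surgery (median 1.29). Over all tested genes with a matched promoter the medians were −0.06 and −0.02 for 811 genes with the motif and −0.02 and −0.05 for 6093 without. The 3 that fell after SCI were Ctsf, Ctsl and Gaa, and Mcoln1, which holds TCACGTGA, passed the test in neither setting. A match is a description of the letters and not a measured site.

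Legumain, the asparaginyl endopeptidase that processes other cathepsins, had the largest rise of its class after SCI. Lgmn stood at 12.19, 12.70 and 12.28 in SCI+CDTX, 9.03, 9.84, 9.06 and 10.93 in SCI+Saline, 11.99, 12.53, 12.32 and 12.13 in Sham+CDTX, and 9.32, 8.68, 8.54 and 9.28 in Sham+Saline. Its 7 cardiotoxin arrays lay above every saline array, the rise was 2.67 ± 0.34 (log2, SE; adjusted p = 7.69e-06) after SCI and 3.29 ± 0.31 (adjusted p = 1.33e-07) after sham surgery, and the SCI+Saline arrays spread most, with replicate 4 highest. Cathepsin H, an aminopeptidase, was at 10.16, 10.79 and 10.13 in SCI+CDTX, 7.77, 8.58, 7.29 and 9.04 in SCI+Saline, 10.18, 10.00, 10.45 and 10.21 in Sham+CDTX, and 8.20, 8.25, 8.03 and 8.46 in Sham+Saline. It rose by 2.19 ± 0.29 after SCI and 1.97 ± 0.27 after sham surgery, again without overlap.

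Cathepsin S, the protease that trims the invariant chain of MHC class II in antigen-presenting cells, differed most of its class between the surgeries. Ctss stood at 8.84, 8.89 and 9.55 in SCI+CDTX, 6.43, 7.65, 5.95 and 8.07 in SCI+Saline, 10.95, 10.53, 10.00 and 9.88 in Sham+CDTX, and 5.61, 5.21, 5.74 and 5.81 in Sham+Saline. No groups overlapped: Sham+Saline was lowest, SCI+Saline above it, then SCI+CDTX, then Sham+CDTX. Its rise was 2.07 ± 0.38 after SCI (adjusted p = 0.000283) and 4.75 ± 0.35 after sham surgery (adjusted p = 1.13e-08), an interaction of −2.68 ± 0.52 (adjusted p = 0.00112). Once the probe difference score was a term, the rise after sham surgery was 2.79 (adjusted p = 0.0245) and the interaction −1.03 (adjusted p = 0.623), so the difference between surgeries lost its call there while the rise kept it.

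Cathepsins B, C and Z, the first an abundant endopeptidase and the second the activator of granule serine proteases, rose with cardiotoxin after either surgery, by 1.58 to 2.95 on the log2 scale. All 3 probes of Ctsc and both probes of Ctsz were called higher in both. Cathepsin A, which holds beta-galactosidase and neuraminidase in a stable complex, rose by 0.64 ± 0.21 after SCI (adjusted p = 0.0179) and 1.71 ± 0.19 after sham surgery (adjusted p = 8.82e-07). The call after SCI was lost without SCI+CDTX 1, SCI+CDTX 3 or SCI+Saline 3 (0.43 to 0.62, adjusted p = 0.0506 to 0.147). Neither call held with the score in the fit, at 0.45 after SCI (adjusted p = 0.093) and 0.47 after sham surgery (adjusted p = 0.499). Ctsa stood at 7.66, 8.06 and 7.14 in SCI+CDTX, 7.04, 7.41, 6.54 and 6.90 in SCI+Saline, 9.11, 9.50, 9.11 and 9.09 in Sham+CDTX, and 7.58, 7.47, 7.34 and 7.57 in Sham+Saline. The Sham+CDTX arrays stood alone at the top. That probe gave a cord injury effect of −1.58 in cardiotoxin muscle, but the other 3 probes of Ctsa gave −0.14 to −0.04 and none was called.

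Cathepsins F and L went the other way. Ctsf, a cysteine protease, stood at 5.77, 5.36 and 5.54 in SCI+CDTX, 6.41, 6.77, 6.37 and 6.55 in SCI+Saline, 5.63, 5.70, 5.51 and 5.54 in Sham+CDTX, and 6.89, 6.61, 6.03 and 6.59 in Sham+Saline. Cardiotoxin arrays were all below the saline arrays, with a fall of 0.97 ± 0.18 after SCI (adjusted p = 0.000274) and of 0.93 ± 0.17 after sham surgery (adjusted p = 0.000129). With the score in the fit the value after sham surgery was −1.02 (adjusted p = 0.0935), and with median scaling −0.15 (adjusted p = 0.473). Ctsl, a lysosomal endopeptidase also induced in wasting muscle, fell by 0.81 ± 0.26 after SCI (adjusted p = 0.0175) and was at −0.14 ± 0.24 after sham surgery; without SCI+CDTX 4 the value after SCI was −0.63 (adjusted p = 0.103). Median scaling gave Ctsl −0.47 there (adjusted p = 0.12), and with no detection filter the adjusted p was 0.0528. Its probe was dim, detected on 3 of 4 Sham+Saline arrays.

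Cathepsin D, the main aspartyl protease, was higher on every SCI array than on every sham array. Ctsd stood at 6.67, 6.43 and 7.04 in SCI+CDTX, 6.92, 6.67, 7.06 and 6.83 in SCI+Saline, 6.19, 6.0, 6.31 and 6.19 in Sham+CDTX, and 5.69, 5.80, 5.11 and 5.01 in Sham+Saline. The lowest SCI array was at 6.43 and the highest sham array at 6.31, and within sham muscle the cardiotoxin arrays were above the saline arrays. Cardiotoxin raised it by 0.77 ± 0.18 after sham surgery (adjusted p = 0.00165), and the difference after SCI was −0.16 ± 0.20 (adjusted p = 0.563). The rise after sham surgery lost its call with the score, at 0.93 (adjusted p = 0.168).

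Cathepsin K, the collagenase of osteoclasts, was detected on all arrays. Ctsk stood at 9.31, 9.50 and 9.33 in SCI+CDTX, 8.99, 8.52, 8.39 and 9.52 in SCI+Saline, 8.98, 8.73, 8.82 and 8.74 in Sham+CDTX, and 8.05, 8.28, 7.92 and 10.70 in Sham+Saline. Sham+Saline 4, one of the arrays with bone transcripts, was the highest of all 15, against 7.92 to 8.28 in the rest of its group. With all 15 arrays none of the comparisons passed (cardiotoxin effect 0.53 ± 0.45 after SCI and 0.08 ± 0.42 after sham surgery). Without SCI+Saline 4 and Sham+Saline 4, an alternative chosen after these values were seen, Ctsk rose with cardiotoxin by 0.74 ± 0.17 after SCI (adjusted p = 0.00177) and 0.73 ± 0.16 after sham surgery (adjusted p = 0.00105). In the same fit it was higher after SCI by 0.56 ± 0.16 in cardiotoxin muscle (adjusted p = 0.0127) and 0.55 ± 0.17 in saline muscle (adjusted p = 0.0241). Both comparisons are also ones between slides. Over all 16 arrays with the score in the limma fit, these values were −0.34 (adjusted p = 0.908) and 0.21 (adjusted p = 0.785).

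**Figure D3:**
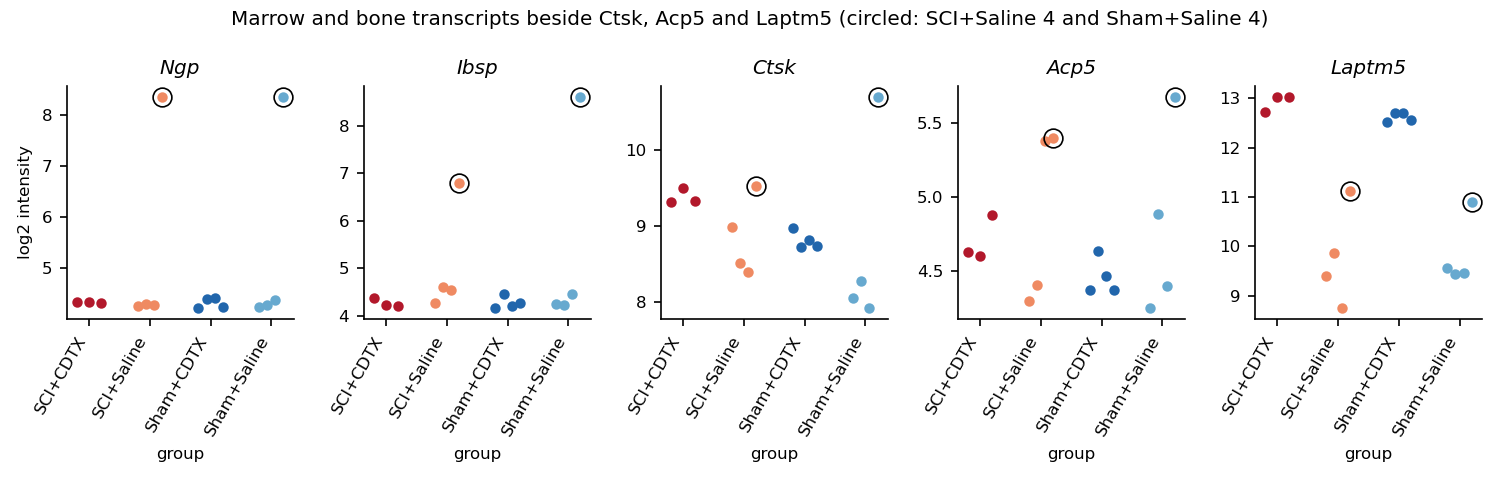
Log2 intensity of the marrow gene Ngp, the bone gene Ibsp and the lysosomal genes Ctsk, Acp5 and Laptm5 on each of the 15 arrays, by group, with SCI+Saline 4 and Sham+Saline 4 circled. Ngp is at 8.36 and 8.37 on the circled arrays and no higher than 4.41 elsewhere, and the circled Sham+Saline array holds the highest Ctsk value (10.70).

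Acp5, the tartrate-resistant acid phosphatase of osteoclasts and some macrophages, was near the detection limit. It stood at 4.63, 4.60 and 4.88 in SCI+CDTX, 4.30, 4.41, 5.38 and 5.40 in SCI+Saline, 4.37, 4.64, 4.47 and 4.37 in Sham+CDTX, and 4.25, 4.89, 4.40 and 5.68 in Sham+Saline, and was detected on 3, 2, 1 and 2 arrays of the groups in that order. The groups overlapped, no comparison passed, and the highest value was again Sham+Saline 4. Osteoclast markers were sparse: of 6, 3 were detected (Mmp9, Nfatc1 and Tnfrsf11a), Calcr and Dcstamp did not pass the filter, and Ocstamp was not analysed here. With cardiotoxin 0 of the 3 rose and 0 fell after SCI (median 0.37; 22.1% and 22.2% of all genes). After sham surgery 1 rose and 1 fell (median −0.95; 23.8% and 26.8% of all genes). Their summed intensity was 404 to 497 in SCI+CDTX, 253 to 574 in SCI+Saline, 258 to 278 in Sham+CDTX and 472 to 1342 in Sham+Saline. Across all 40 genes, SCI+Saline 4 was the highest array of its group in 28 and Sham+Saline 4 in 19. Leaving both arrays out gave 29 genes higher and 3 lower with cardiotoxin after SCI (23.8% and 24.1% of all genes) and 29 and 2 after sham surgery (24.2% and 27.7%).

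Beta-glucuronidase, which removes glucuronic acid from glycosaminoglycans, had the largest hydrolase response after SCI. Gusb stood at 10.47, 11.06 and 10.80 in SCI+CDTX, 8.08, 8.45, 8.33 and 9.25 in SCI+Saline, 10.02, 9.93, 10.41 and 10.09 in Sham+CDTX, and 8.41, 8.06, 7.84 and 8.35 in Sham+Saline. Cardiotoxin and saline arrays did not overlap, with rises of 2.25 ± 0.23 and 1.94 ± 0.21 after SCI and sham surgery, and all 3 of its probes were called higher in both. Glb1, beta-galactosidase, stood at 7.99, 8.46 and 8.08 in SCI+CDTX, 5.94, 5.93, 5.96 and 6.73 in SCI+Saline, 7.76, 7.46, 7.62 and 7.53 in Sham+CDTX, and 6.35, 6.57, 6.83 and 7.63 in Sham+Saline. The first 3 SCI+Saline arrays lay between 5.93 and 5.96 and replicate 4 above them. The rise was 2.03 ± 0.25 after SCI (adjusted p = 6.32e-06) and 0.75 ± 0.23 after sham surgery (adjusted p = 0.0122), where Sham+Saline 4 overlapped the Sham+CDTX arrays and leaving out Sham+Saline 1 gave 0.58 (adjusted p = 0.053). The estimate for Glb1 after sham surgery was 2.36 (adjusted p = 0.02) with the score, and over all 16 arrays without it 0.75 (adjusted p = 0.0635). SCI+CDTX 2, left out of the main fit, was at 6.73 for Glb1 when all 16 arrays were normalized together.

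Hexosaminidase A removes N-acetylgalactosamine from the ganglioside GM2. Hexa stood at 9.72, 9.99 and 9.65 in SCI+CDTX, 8.40, 8.76, 8.44 and 8.94 in SCI+Saline, 10.49, 10.62, 10.58 and 10.30 in Sham+CDTX, and 8.16, 8.12, 7.83 and 8.23 in Sham+Saline. Its rise was 1.15 ± 0.16 after SCI (adjusted p = 2.14e-05) and 2.42 ± 0.15 after sham surgery (adjusted p = 1.80e-09), with no overlap between cardiotoxin and saline arrays of either surgery. With the score in the fit the rise after sham surgery was 2.57 (adjusted p = 0.000979).

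Naglu, an enzyme of heparan sulfate breakdown, stood at 7.83, 8.06 and 7.83 in SCI+CDTX, 5.68, 5.94, 6.21 and 6.62 in SCI+Saline, 7.07, 6.86, 6.81 and 6.85 in Sham+CDTX, and 6.48, 6.29, 5.99 and 6.56 in Sham+Saline. The SCI+CDTX arrays of the fit were above all others. SCI+CDTX 2, left out of it, was at 6.86 when all 16 arrays were normalized together. The rise was 1.79 ± 0.19 after SCI and 0.57 ± 0.18 after sham surgery (0.45 without Sham+Saline 3, adjusted p = 0.0511). Over all 16 arrays without the score the interaction for Naglu was 0.95 (adjusted p = 0.0746). For Naglu after sham surgery the estimate with the score was 2.14 (adjusted p = 0.00404), above the value after SCI. Over all 16 arrays without the score the rise was 0.57 (adjusted p = 0.0602). Man2b1 and Manba (mannosidases), Ppt1 (a thioesterase), Acp2 (an acid phosphatase) and Asah1 (acid ceramidase) rose after both surgeries, by 0.73 to 1.92. The lowest of these, that of Manba after sham surgery, was 0.37 with the score (adjusted p = 0.476). Neu1, a neuraminidase, rose by 0.80 ± 0.16 after SCI (adjusted p = 0.000599) and was at −0.12 ± 0.15 after sham surgery, a value that was 1.76 (adjusted p = 0.00431) with the score in the fit and 0.60 (adjusted p = 0.00816) with median scaling. Over all 16 arrays the rise of Neu1 after SCI was 0.46 (adjusted p = 0.151).

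Gaa and Smpd1 did not follow the other hydrolases. Gaa, acid alpha-glucosidase, which degrades glycogen and is lost in Pompe disease, stood at 10.24, 9.64 and 9.77 in SCI+CDTX, 10.87, 10.17, 10.75 and 10.94 in SCI+Saline, 10.07, 10.24, 9.79 and 9.83 in Sham+CDTX, and 10.26, 10.06, 10.09 and 9.86 in Sham+Saline. It fell by 0.80 ± 0.19 with cardiotoxin after SCI (adjusted p = 0.0027), with 1 SCI+CDTX array above the lowest SCI+Saline array, and was at −0.09 ± 0.18 after sham surgery. Smpd1, acid sphingomyelinase, stood at 9.36, 8.86 and 9.10 in SCI+CDTX, 8.97, 9.02, 9.09 and 9.27 in SCI+Saline, 8.75, 9.13, 8.97 and 8.98 in Sham+CDTX, and 10.41, 10.18, 10.08 and 9.96 in Sham+Saline. Sham+Saline was above the other groups, without overlap, and the fall with cardiotoxin after sham surgery was 1.20 ± 0.15 (adjusted p = 1.99e-06). Its other probes gave −0.35 and −0.28, neither called, and with the score in the fit the value was −0.42 (adjusted p = 0.463). Tpp1, a tripeptidyl peptidase, rose by 0.50 ± 0.18 after sham surgery (adjusted p = 0.0277), which was −0.79 (adjusted p = 0.175) with the score, and was at −0.18 ± 0.19 after SCI. The call of Tpp1 was also lost without Sham+CDTX 1, Sham+Saline 1 or Sham+Saline 3 (0.46 to 0.48, adjusted p = 0.0581 to 0.0667).

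All 4 activator and transfer genes rose with cardiotoxin after both surgeries. Grn, progranulin, a secreted and lysosomal protein needed for lysosomal enzyme function, stood at 11.73, 12.17 and 11.85 in SCI+CDTX, 8.49, 9.23, 8.62 and 10.24 in SCI+Saline, 11.81, 11.92, 11.96 and 11.64 in Sham+CDTX, and 9.30, 9.26, 8.67 and 9.35 in Sham+Saline. Npc2, which hands cholesterol to the membrane transporter NPC1, stood at 9.93, 10.18 and 10.24 in SCI+CDTX, 7.84, 8.03, 8.19 and 8.73 in SCI+Saline, 10.41, 9.71, 9.88 and 9.80 in Sham+CDTX, and 7.88, 7.90, 7.65 and 8.31 in Sham+Saline. Cardiotoxin and saline arrays of the same surgery did not overlap for either gene; Grn rose by 2.77 ± 0.30 and 2.69 ± 0.27 and Npc2 by 1.92 ± 0.21 and 2.01 ± 0.20 after SCI and sham surgery.

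Psap, the precursor of the saposins that present sphingolipids to their hydrolases, stood at 13.62, 13.82 and 13.44 in SCI+CDTX, 11.28, 11.53, 11.65 and 12.51 in SCI+Saline, 13.61, 13.42, 13.64 and 13.42 in Sham+CDTX, and 12.37, 12.50, 12.05 and 12.02 in Sham+Saline. Gm2a, the GM2 activator, stood at 9.53, 10.08 and 9.39 in SCI+CDTX, 7.70, 8.11, 8.15 and 8.75 in SCI+Saline, 9.81, 9.65, 9.83 and 9.83 in Sham+CDTX, and 8.56, 8.53, 8.18 and 8.40 in Sham+Saline. Psap rose by 1.89 ± 0.22 after SCI and 1.29 ± 0.20 after sham surgery, and Gm2a by 1.49 ± 0.21 and 1.36 ± 0.19, none with overlap. For these 4 genes no effect of cord injury passed the test, in cardiotoxin or in saline muscle, and the effects ranged from −0.49 to 0.26. The widest interval was that of Grn in cardiotoxin muscle, −0.54 to 0.71. Without SCI+Saline 4, however, Psap was lower with SCI in saline muscle, at −0.75 (adjusted p = 0.00154). The interaction for Psap without that array was 0.85 (adjusted p = 0.0088).

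**Figure D4:**
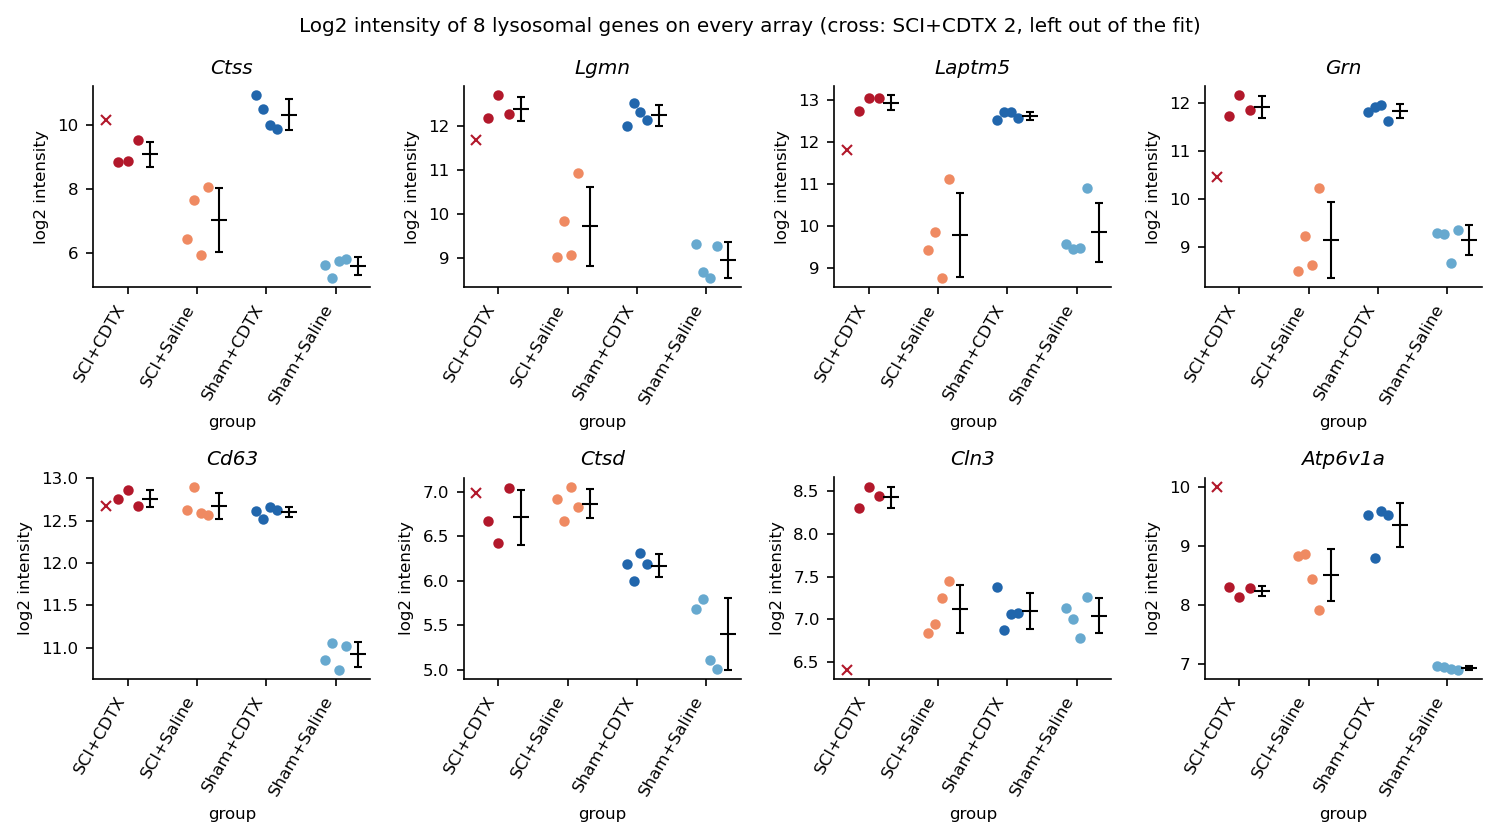
Log2 intensity of 8 lysosomal genes on each of the 15 arrays (points, by group) with the group mean and SD beside them; a cross marks SCI+CDTX 2, taken from a normalization of all 16 arrays and left out of the mean. Ctss, Lgmn, Laptm5 and Grn are high in both cardiotoxin groups, and Cd63 is low in Sham+Saline alone (10.74 to 11.06). Cln3 is high on the SCI+CDTX points alone (8.30 to 8.55), with the cross at 6.41.

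Laptm5, a lysosomal membrane protein of blood-derived cells, had the largest response after SCI. It stood at 12.72, 13.03 and 13.03 in SCI+CDTX, 9.41, 9.86, 8.75 and 11.12 in SCI+Saline, 12.52, 12.70, 12.70 and 12.56 in Sham+CDTX, and 9.56, 9.44, 9.47 and 10.90 in Sham+Saline. Every cardiotoxin array exceeded every saline array, and replicate 4 was the highest array in both saline groups. The rise was 3.14 ± 0.40 after SCI (adjusted p = 7.75e-06) and 2.78 ± 0.37 after sham surgery (adjusted p = 5.32e-06), and 3.58 ± 0.21 and 3.12 ± 0.20 without the 2 arrays that carried bone transcripts. Lamp1 and Lamp2, the main glycoproteins of the lysosomal membrane, rose by less: 0.75 ± 0.16 and 0.52 ± 0.19 after SCI, and 0.40 ± 0.15 and 0.86 ± 0.17 after sham surgery. All 4 probes of Lamp2 were called higher in both. Single arrays decided some of these calls. Lamp2 after SCI was lost without SCI+CDTX 3, SCI+CDTX 4, SCI+Saline 1 or SCI+Saline 3 (0.42 to 0.54, adjusted p = 0.0515 to 0.133). Lamp1 after sham surgery was lost without Sham+CDTX 2, 3 or 4 or Sham+Saline 3 or 4 (0.32 to 0.42, adjusted p = 0.0504 to 0.114). With the score in the fit the order after sham surgery turned, with Lamp1 at 1.45 (adjusted p = 0.0134) and Lamp2 at 0.35 (adjusted p = 0.623), and Lamp2 after SCI was 0.43 (adjusted p = 0.0945). Median scaling gave Lamp2 0.26 after SCI (adjusted p = 0.363).

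The tetraspanin CD63 marks late endosomes, lysosomes and secreted exosomes. Cd63 stood at 12.75, 12.86 and 12.67 in SCI+CDTX, 12.63, 12.90, 12.59 and 12.56 in SCI+Saline, 12.61, 12.52, 12.66 and 12.62 in Sham+CDTX, and 10.86, 11.06, 10.74 and 11.02 in Sham+Saline. The Sham+Saline arrays lay below all others by more than 1 log2 unit, while the other 3 groups lay close together. Cardiotoxin raised it by 1.68 ± 0.13 after sham surgery (limma, adjusted p = 1.14e-08). In saline muscle it was higher by 1.75 ± 0.13 after cord injury (adjusted p = 1.20e-08), a comparison that is also one between slides. With both insults present the further difference was 0.09 ± 0.14 for cardiotoxin after SCI (95% interval −0.20 to 0.38). The interaction was −1.60 ± 0.19 (adjusted p = 1.53e-05), all 3 of its probes were called (−1.60 to −1.08), and with the probe difference score it was −1.64 (adjusted p = 0.0128).

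Cln3, the membrane protein lost in juvenile Batten disease, stood at 8.30, 8.55 and 8.44 in SCI+CDTX, 6.84, 6.94, 7.25 and 7.45 in SCI+Saline, 7.38, 6.87, 7.06 and 7.07 in Sham+CDTX, and 7.13, 7.0, 6.78 and 7.26 in Sham+Saline. SCI+CDTX arrays were above all others, which overlapped; the rise with cardiotoxin was 1.31 ± 0.17 after SCI (adjusted p = 1.21e-05) and 0.06 ± 0.16 after sham surgery. With the score in the fit the estimate for Cln3 after sham surgery was 2.84 (adjusted p = 0.00113), although the Sham+CDTX and Sham+Saline arrays overlapped. Median scaling gave 0.88 (adjusted p = 0.000517). SCI+CDTX 2, the array the authors left out, was at 6.41 when all 16 arrays were normalized together, below the other SCI+CDTX arrays, and over all 16 arrays without the score the rise after SCI was 0.79 (adjusted p = 0.0745).

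Scarb2, a membrane carrier of beta-glucocerebrosidase, stood at 8.66, 8.16 and 8.36 in SCI+CDTX, 8.41, 8.43, 8.67 and 8.34 in SCI+Saline, 8.30, 8.25, 8.02 and 8.19 in Sham+CDTX, and 8.06, 7.74, 7.94 and 8.11 in Sham+Saline. Mcoln1, a lysosomal calcium channel, stood at 5.82, 5.59 and 5.40 in SCI+CDTX, 5.20, 5.84, 6.01 and 5.55 in SCI+Saline, 5.87, 5.71, 5.86 and 5.74 in Sham+CDTX, and 6.06, 5.89, 5.73 and 5.48 in Sham+Saline. Cardiotoxin and saline arrays overlapped for both genes, and the cardiotoxin effects lay between −0.07 and 0.23. Median scaling gave 0.96 for Scarb2 (adjusted p = 9.85e-05) and 0.72 for Mcoln1 (adjusted p = 0.00102) after sham surgery.

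The proton pump genes differed among themselves. Atp6v1b2, a catalytic-head subunit, stood at 10.58, 10.92 and 10.47 in SCI+CDTX, 9.39, 9.60, 9.64 and 9.95 in SCI+Saline, 10.60, 10.95, 11.05 and 10.69 in Sham+CDTX, and 9.79, 9.51, 9.67 and 9.67 in Sham+Saline. Cardiotoxin arrays were above saline arrays throughout, with rises of 1.01 ± 0.16 and 1.16 ± 0.15 after SCI and sham surgery. Atp6v1h, a regulatory subunit, rose by 0.49 ± 0.14 and 0.97 ± 0.13. Atp6ap1, an accessory protein of pump assembly, stood at 11.80, 11.82 and 11.68 in SCI+CDTX, 10.45, 10.64, 10.98 and 11.12 in SCI+Saline, 11.42, 11.65, 11.47 and 11.43 in Sham+CDTX, and 11.50, 11.39, 11.51 and 11.53 in Sham+Saline. The SCI+Saline arrays were lowest, so that cardiotoxin raised it by 0.97 ± 0.16 after SCI (adjusted p = 7.42e-05) and the difference after sham surgery was 0.01 ± 0.14. With the score the estimate for Atp6ap1 after sham surgery was 1.05 (adjusted p = 0.0429).

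Atp6v1a, the subunit that hydrolyses ATP, stood at 8.30, 8.14 and 8.28 in SCI+CDTX, 8.83, 8.87, 8.44 and 7.91 in SCI+Saline, 9.53, 8.80, 9.59 and 9.52 in Sham+CDTX, and 6.96, 6.94, 6.91 and 6.90 in Sham+Saline. The 4 Sham+Saline arrays lay between 6.90 and 6.96, below all the rest, and the Sham+CDTX arrays were highest apart from replicate 2. Its rise after sham surgery was 2.43 ± 0.20 (adjusted p = 2.59e-08) and its difference after SCI −0.27 ± 0.21. With the score in the fit the value after sham surgery was 0.12 (adjusted p = 0.913), so this call did not hold there, and SCI+CDTX 2, at 10.01, lay with the Sham+CDTX arrays and not with its own group.

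The number of genes that rose with cardiotoxin changed little with the score: 26 genes rose and 3 fell after SCI (21.9% and 20.5% of all genes) and 26 rose and 0 fell after sham surgery (12% and 9.41%, limma; 1 lower at an unadjusted p under 0.05). Of the 29 genes called higher after sham surgery 23 were called higher in that fit too. Cln3, Neu1 and Atp6ap1 were called higher there alone, and their differences on 15 arrays were 0.06, −0.12 and 0.01. Some estimates after sham surgery were larger there. Among them were those of Acp2 (1.93, from 0.96), Psap (2.54, from 1.29), Gusb (3.65, from 1.94), Ctsh (3.42, from 1.97), Man2b1 (2.87, from 1.67), Grn (4.36, from 2.69) and Ppt1 (1.92, from 1.22). SCI+CDTX 2 itself lay above every SCI+Saline array in 22 of the 28 genes that rose after SCI and below all of the other 3 SCI+CDTX arrays in 23. These 28 genes were called from high values on those 3 arrays, which by itself favours a lower value on the array left out. No share over all genes was taken for these counts. Median scaling gave 27 higher and 2 lower after SCI and 33 and 1 after sham surgery, where it moved the median of all probes from −0.04 to 0.32. The authors' deposited table, at p under 0.05, lists 27 of the 40 genes higher and 1 lower in SCI+CDTX than in SCI+Saline. For median scaling and for that table the share of all genes called was not taken.

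In saline muscle, proteases, membrane and pump genes were among those higher after cord injury, a comparison that is also one between slides. Against Sham+Saline, 10 of the 40 rose and 4 fell, where 14.7% and 15.8% of all genes did, and the median of the 40 was 0.00. Those that rose were the proteases Ctsd (1.46 ± 0.18), Ctss (1.43 ± 0.35), Ctsl (0.92 ± 0.24) and Ctsz (0.86 ± 0.24), the hydrolases Gaa (0.61 ± 0.18) and Hexa (0.55 ± 0.15), the membrane genes Cd63 (1.75 ± 0.13) and Scarb2 (0.50 ± 0.14), and the pump genes Atp6v1a (1.58 ± 0.20) and Atp6v1h (0.54 ± 0.13). Smpd1 (−1.07 ± 0.15), Glb1 (−0.70 ± 0.23), Atp6ap1 (−0.68 ± 0.14) and Manba (−0.64 ± 0.14) fell. Adjusted p-values of these 14 lay between 1.20e-08 and 0.0286. Glb1 lost its call without SCI+Saline 1, 2 or 3 or Sham+Saline 4 (−0.64 to −0.44, adjusted p = 0.0687 to 0.107), and Gaa without both arrays that carried bone transcripts (0.46, adjusted p = 0.0999). Median scaling ended the calls of Atp6ap1 (−0.22), Manba (−0.25) and Glb1 (−0.34; adjusted p = 0.291, 0.266 and 0.384), and Ctss was at 0.76 (adjusted p = 0.051) with no background correction. With 1 array left out, 5 more genes passed, namely Lgmn without SCI+Saline 1 or 3 (0.98), Ctsa without SCI+CDTX 3 or 4 or SCI+Saline 2 (−0.66 to −0.52), Acp2 without SCI+Saline 4 or Sham+Saline 2 (−0.52 to −0.47), Ctsk without Sham+Saline 4 (0.77) and Psap without SCI+Saline 4 (−0.75). Scaling by medians in place of quantiles turned the counts to 18 higher and 1 lower, and moved the median of all probes in this comparison from −0.01 to 0.17, so the share that rose depends on that choice. The Sham+Saline arrays were also the dimmest before normalization (mean raw intensity 230.5 to 277, against 319.9 to 373.1 on the other 12 arrays). Macrophage markers gave 2 of 11 higher here (median 0.50).

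In cardiotoxin muscle, cord injury was followed by 5 genes higher and 6 lower than in Sham+CDTX, beside 16.5% and 15.7% of all genes, with a median of 0.10. Cln3 (1.33 ± 0.17), Naglu (1.01 ± 0.19), Neu1 (0.86 ± 0.16), Gusb (0.67 ± 0.23) and Ctsd (0.54 ± 0.20) were higher. Ctsa (−1.58 ± 0.21), Ctss (−1.25 ± 0.38), Atp6v1a (−1.12 ± 0.21), Tpp1 (−0.78 ± 0.19), Hexa (−0.71 ± 0.16) and Manba (−0.54 ± 0.15) were lower. When that score was added to the fit, 0 of the 40 were called by limma in either direction (1.28% and 0.624% of all genes; 0 higher and 10 lower at an unadjusted p under 0.05), and 7 of these 11 effects turned sign, among them Cln3 at −0.91 (adjusted p = 0.158). Over all 40 genes, called or not, 27 effects turned sign. On 15 arrays the calls of Ctsd (without SCI+CDTX 1 or 4, SCI+Saline 1 or any Sham+CDTX array), Gusb (without SCI+CDTX 3 or 4 or Sham+CDTX 1, 2 or 4) and Ctss (without SCI+CDTX 1 or 3 or Sham+CDTX 1) were lost (adjusted p = 0.0516 to 0.243 for Ctsd, 0.068 to 0.169 for Gusb and 0.0603 to 0.0746 for Ctss), and that of Manba without SCI+CDTX 4 (−0.48, adjusted p = 0.053). Over all 16 arrays without the score 2 were higher and 3 lower. The authors' deposited table lists 7 higher and 6 lower at p under 0.05, without a share of all genes beside them. On 15 arrays, less bright probes were also called for genes outside the 11. They were lower for Ctsc (2 of its 3 probes, down to −0.90) and Smpd1 (1 of 3, −0.96), and higher for Cd63 (1 of 3, 0.45).

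The interaction, the cardiotoxin effect after SCI minus that after sham surgery, passed the test for 12 genes, 6 positive and 6 negative, beside 13.9% and 11.7% of all genes. Positive ones were Glb1 (1.29), Cln3 (1.25), Naglu (1.23), Smpd1 (1.22), Atp6ap1 (0.95) and Neu1 (0.92), and negative ones Atp6v1a (−2.71), Ctss (−2.68), Cd63 (−1.60), Hexa (−1.26), Ctsa (−1.07) and Ctsd (−0.92). By probe, Smpd1 was called in 1 of 3 (−0.09 to 1.22) and Ctsa in 1 of 4 (−1.07 to 0.22). With the score in the fit only Cd63 kept its call, and Hexa was at −1.43 (adjusted p = 0.0867) and Ctsd at −0.98 (adjusted p = 0.358). The sign of the interaction turned in 19 of the 40 genes. Ctsd also lost its call without SCI+CDTX 3 (−0.78, adjusted p = 0.0598). With 1 array left out, the interaction passed for Tpp1 without SCI+Saline 3 or 4 (−0.83 to −0.80), Gaa without SCI+CDTX 1 or SCI+Saline 2 (−0.89 to −0.88), Ctsz without SCI+Saline 3 (−1.05, adjusted p = 0.0208) or Sham+Saline 2 (adjusted p = 0.0468) and Psap without SCI+Saline 4 (0.85). With the score, 0.0814% of all genes were called positive and 0.235% negative. Median scaling gave 1 positive and 15 negative calls and moved the median of all probes from −0.01 to −0.24.

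**Figure D5:**
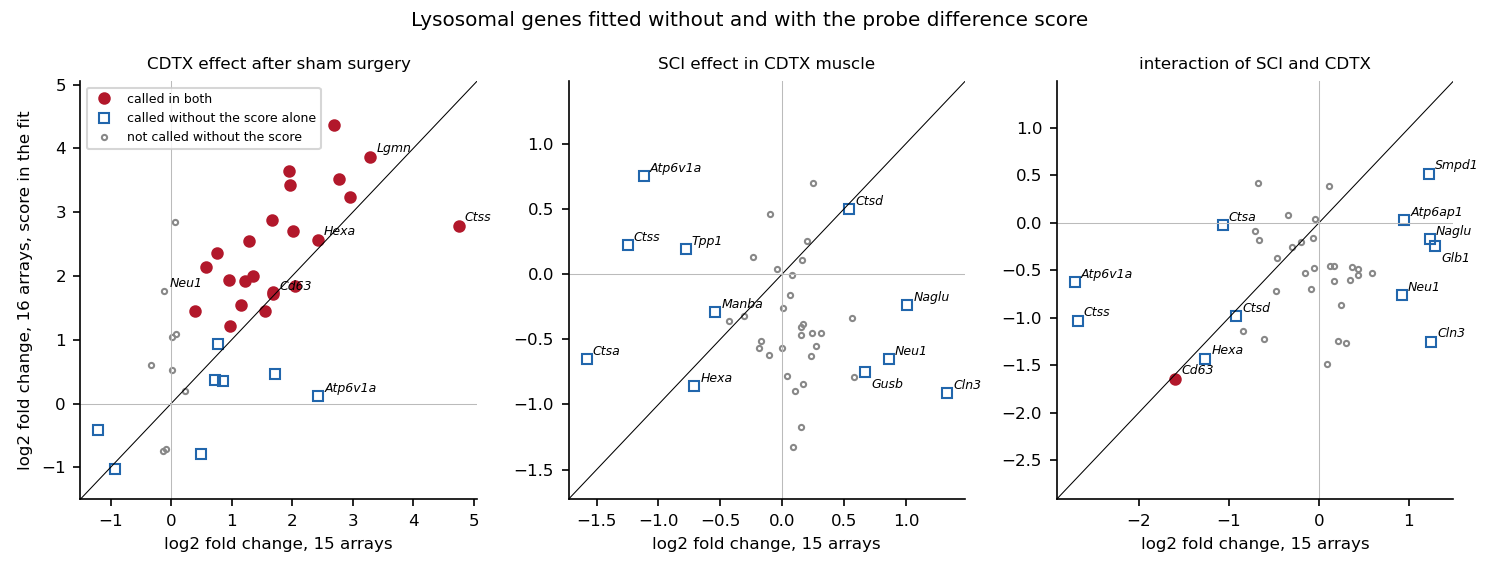
Log2 fold changes of the 40 genes from the fit on 15 arrays (x) and from the fit on 16 arrays with the probe difference score as a term (y), for the cardiotoxin effect after sham surgery, the cord injury effect in cardiotoxin muscle and the interaction; the diagonal marks equal values. Of the genes called on 15 arrays, 23 of 31, 0 of 11 and 1 of 12 kept the call with the score.

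Lysosomal genes outside the 47 were taken from a list of 70, of which 60 were tested. With cardiotoxin 31 rose and 11 fell after SCI (median 0.44; 22.1% and 22.2% of all genes), and 27 rose and 4 fell after sham surgery (median 0.23; 23.8% and 26.8% of all genes). Among pump genes of that list the largest rise was that of Tcirg1, the a3 subunit of macrophages and osteoclasts, at 2.64 after SCI and 2.87 after sham surgery. Among membrane genes it was that of Cd68, a macrophage glycoprotein, at 2.75 and 4.61. Like Cd63, Cd68 was higher after SCI in saline muscle (1.82, adjusted p = 0.000319). Among 5 tested cathepsin inhibitors Serpina3n was the largest after SCI (2.23) and Cstb, cystatin B, after sham surgery (2.90).

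Autophagy delivers cell contents to lysosomes. Of 9 tested autophagy genes, 1 rose (Atg7, 0.67) and 6 fell after SCI (22.1% and 22.2% of all genes), the largest fall being that of the autophagosome protein gene Map1lc3a (−1.51), and after sham surgery 1 rose and 1 fell (23.8% and 26.8%). In saline muscle cord injury was followed by 5 higher and 1 lower (14.7% and 15.8%), from Map1lc3a at 1.22 to Ulk1, the initiating kinase, at −0.65. Of the CLEAR-binding factors, Tfeb was at −0.84 and Tfe3 at 1.08 with cardiotoxin after SCI (adjusted p = 0.000913 and 0.000493). After sham surgery Tfeb was at 0.01 (adjusted p = 0.979) and Tfe3 at 0.49 (adjusted p = 0.0488). Mitf and Tfec did not pass the detection filter.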

How the data were processed

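Whole hamstring muscle RNA was labelled with biotin and hybridised to 16 Illumina BeadChip arrays, 4 per group on 2 slides. Per the file headers and the submitters' processing notes, the authors exported raw probe intensities and a detection p-value per array from GenomeStudio 2011.1, with gene symbols in the same table. A second deposited table holds the authors' normalized group mean intensities and p-values for SCI+CDTX against the other groups; its normalization is not given in the sources used here, and it was used only where it is named.

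The background of the deposited intensities was corrected by normexp, estimated from the detection p-values, with an offset of 16 (limma 3.58.1, R 4.3.3), followed by quantile normalization and log2. Kept probes were those whose detection p fell under 0.05 on 3 or more of the 15 arrays. limma (lmFit, contrasts.fit, eBayes) was fitted to 4 group means over all 14763 kept probes, and p-values were adjusted by Benjamini-Hochberg over all of them, with 0.05 as the threshold. A log2 fold change is a difference of group means of these values. A gene is represented by its kept probe of highest mean, and levels are not compared between genes. The number of arrays limits the precision. The 47 genes, the class and marker lists and the tests were chosen with earlier results of these data known.

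Values on every array are given, by class, for the 2 genes with the largest and the 1 with the smallest cardiotoxin effect after each surgery, for the gene with the largest absolute cord injury effect in each injection, and for Ctsk and Acp5. No gene had probes called in opposite directions. Alternatives were other background, scaling, filter, array, slide and probe choices, leaving out each array, the replicate number as a block and the probe difference score. The fit was tested on simulated data. Replicate numbers do not pair the arrays: correlations of same-numbered deviations ranged from −0.27 to 0.38. Arrays were also checked for identical values, and 0 pairs were found.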

Additional observations from a re-analysis of the deposited data

Results flagged for a closer look

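Among 120 gene and group combinations with 4 arrays, 8 held an array far from the other 3, where chance gives about 1 in 20. Sham+CDTX 2 was that array for Atp6v1a (8.80, others 9.52 to 9.59), Ctsa (9.50, others 9.09 to 9.11), Gm2a (9.65, others 9.81 to 9.83) and Neu1 (8.09, others 8.27 to 8.28). Sham+Saline 4 was it for Ctsk (10.70, others 7.92 to 8.28) and Laptm5 (10.90, others 9.44 to 9.56), SCI+Saline 4 for Glb1 (6.73, others 5.93 to 5.96) and Sham+Saline 3 for Grn (8.67, others 9.26 to 9.35).

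The cardiotoxin effect differed between the surgeries, by the interaction term of limma, in 12 genes. It was higher (more positive) after SCI than after sham surgery for Glb1 (1.29), Cln3 (1.25), Naglu (1.23), Smpd1 (1.22), Atp6ap1 (0.95) and Neu1 (0.92), and lower after SCI for Atp6v1a (−2.71), Ctss (−2.68), Cd63 (−1.60), Hexa (−1.26), Ctsa (−1.07) and Ctsd (−0.92). For Smpd1 this was a fall after sham surgery (−1.20) beside 0.02 after SCI. The interaction was called in 1 of the 3 probes of Smpd1 (−0.09 to 1.22) and 1 of the 4 of Ctsa (−1.07 to 0.22). Cd63 was the gene among the 12 whose call held in all 27 alternatives run for it. These include slide as a fixed block, which is the fit to group means in another form and could not change a call.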

How the results depend on the processing

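Of the calls made on 15 arrays, 26 of 31 (cardiotoxin after SCI), 20 of 31 (cardiotoxin after sham surgery), 0 of 11 (SCI in cardiotoxin muscle), 9 of 14 (SCI in saline muscle) and 1 of 12 (interaction) held in every alternative; the cause of the losses was not tested. SCI in cardiotoxin muscle gave 2 higher and 3 lower with all 16 arrays, 3 higher with no detection filter, and 0 and 0 with the probe difference score. The interaction gave 1 positive with all 16 arrays, 1 and 15 with median scaling, and 0 and 1 with the score. Cardiotoxin after sham surgery gave 1 lower with median scaling, 1 when all probes of a gene had to agree and 0 with the score. SCI in saline muscle gave 18 higher and 1 lower with median scaling. Leaving out each array gave 26 to 28 higher and 2 to 3 lower (cardiotoxin after SCI), 26 to 29 and 2 (after sham surgery), 3 to 6 and 5 to 6 (SCI in cardiotoxin muscle), 10 to 11 and 3 to 6 (SCI in saline muscle), and 6 to 7 and 5 to 8 (interaction). With the replicate number as a block, SCI in cardiotoxin muscle gave 3 higher; 3 of 15 arrays correlated best with their own number.

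Effects that changed sign, and were called on 15 arrays or under the alternative, were, under median scaling, Neu1 (cardiotoxin after sham surgery, 0.60), and Atp6v1b2 (0.47) and Lamp1 (0.38) for SCI in saline muscle. Under the probe difference score they were Neu1 (1.76) and Tpp1 (−0.79) for cardiotoxin after sham surgery; Atp6v1a (0.75), Cln3 (−0.91), Ctss (0.22), Gusb (−0.75), Naglu (−0.24), Neu1 (−0.65) and Tpp1 (0.19) for SCI in cardiotoxin muscle; and Cln3 (−1.25), Glb1 (−0.24), Naglu (−0.17) and Neu1 (−0.76) for the interaction; called or not, 3, 27 and 19 of the 40 genes turned sign in these comparisons. Genes near background, such as Acp5, limit what their values show.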
